A study of Mus musculus with 4 samples.

Results

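The integrin subunits of mouse articular chondrocytes were followed through 10 genes, Itga1, Itga2, Itga3, Itga5, Itga6, Itga10, Itga11, Itgav, Itgb1 and Itgb5. They were chosen by name as the subunits through which chondrocytes bind their matrix, and all 10 were found among the 55141 genes of the expression table. Measurements came from 3′ end mRNA sequencing of 4 cultures, with 1 library per condition. All cells were chondrocytes released from the femoral heads of C57BL/6 mice at 3 weeks of age and grown in serum-containing medium.

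The first library was labelled wild type (WT), and the study's text also calls these cells wild type, while its methods give floxed mice as the controls, so whether its cells carried the floxed alleles was not settled here. Cart-miR-23clus KO carried Col2a1-cre with floxed miR-23a and miR-23b clusters, which removes both clusters in cells that have used the Col2a1 promoter. The third library, miR-26a KO, was labelled miR-26a -/-. The fourth, miR-26a KO + mimic, came from the same genotype (strain label C57BL6/J) after transfection of a double-stranded miR-26a mimic with a lipid reagent. Whether a control oligonucleotide had been given to the third library is not stated in the labels. How many animals gave each library is not stated either. Mature miRNAs are not read by this method, so the deletions could not be checked here.

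Integrins are receptors made of an alpha and a beta chain that span the cell membrane, bind the matrix outside and connect to the actin cytoskeleton inside. The alpha chain largely decides what is bound. In cartilage, the collagen receptors pair Itga1, Itga2, Itga10 or Itga11 with Itgb1, and the alpha chain of Itga10 is regarded as the main collagen II receptor of chondrocytes. Itga3 and Itga6 bind laminins with Itgb1. Itga5 with Itgb1 is the classical fibronectin receptor, and Itgav pairs with Itgb5 and other beta chains to bind vitronectin and related proteins through the RGD motif. A miRNA recognises mRNAs mainly through its seed, the bases 2 to 8 from its 5′ end, which pair with the complementary letters in the 3′ UTR.

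The mature miRNAs that the deletions concern are shown first, from RefSeq on GRCm38.p6, because their seeds set which letters were sought in the integrin mRNAs. Capitals mark the seed. Only 1 locus is given for each miRNA, and others may exist. A locus of miR-26a-5p lies at chr9:119031811-119031832 on the plus strand, and its sequence equals the sense strand of the mimic. The miR-23a and miR-27a sequences lie at chr8:84208563-84208583 and chr8:84208727-84208747, miR-27b at chr13:63300760-63300780 and miR-24 at chr8:84208875-84208896, all on the plus strand. The miR-23b cluster encodes miR-24 as well, at a locus that is not shown. miR-27a and miR-27b share their seed and were treated as 1 site. mmu-miR-23b-3p also belongs to these clusters.
mmu-miR-26a-5p: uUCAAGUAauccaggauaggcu
mmu-miR-23a-3p: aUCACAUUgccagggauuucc
mmu-miR-27a-3p: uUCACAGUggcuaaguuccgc
mmu-miR-27b-3p: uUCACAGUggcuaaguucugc
mmu-miR-24-3p: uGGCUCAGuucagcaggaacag

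The 7 letters complementary to each seed were sought on the mRNA strand of the longest annotated 3′ UTR of each integrin. TACTTGA, for miR-26a, was found in 5 of the 10 integrins (Itga1, Itga2, Itga3, Itga5 and Itgb1), and 12.3% of 10352 genes held it. Because integrin UTRs are long (586 to 6994 bases), the share was also taken over the 7643 genes whose UTR is at least as long as the shortest of them, and was 15.9%. ACTGTGA, for miR-27, was found in Itga1 (at 2 places), Itga2, Itga5, Itga10 and Itga11, against 18.1% of genes and 22.8% of those with long UTRs. AATGTGA, for miR-23a, was found in Itga1 and Itga2, against 17.5% and 22.5%. Only Itga3 held CTGAGCC, for miR-24, against 19.8% and 24.9%. No match to any of these letters lay in the UTRs of Itga6, Itgav or Itgb5. None of the matches overlapped another. In Itga1, Itga3 and Itga5 the match to miR-26a was followed by an A, which lengthens it to 8 letters. An A also followed the miR-27 match in Itga2 and Itga5 and 1 of the 2 matches in Itga1. A match of letters is a description and not evidence of binding.

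The matches to miR-26a are printed with 10 bases on each side, 5′ to 3′ along the mRNA and with the match in capitals, since miR-26a is the miRNA that was both deleted and added back. On GRCm38 they lie at chr13:114956468-114956494 (Itga1), chr13:114833428-114833454 (Itga2), chr11:95044767-95044793 (Itga3) and chr15:103345128-103345154 (Itga5), each on the minus strand, and at chr8:128732678-128732704 (Itgb1) on the plus strand.
Itga1, miR-26a: gtcataaagaTACTTGAaaaaaacttg
Itga2, miR-26a: gtattgtttgTACTTGAttttggcaaa
Itga3, miR-26a: tggggtgtgaTACTTGAatgtagcatg
Itga5, miR-26a: cccagagacaTACTTGAagggccagag
Itgb1, miR-26a: cattgtgagtTACTTGAtcctgtaact

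For the members of the miR-23 clusters, the matches in the chondrocyte collagen receptors Itga10 and Itga11 are shown because these 2 genes had the lowest ratios of Cart-miR-23clus KO to WT among the 10 integrins (0.508 and 0.446), a choice made on that outcome. The other integrins with a miR-27 match had ratios above 1 in the same comparison, at 1.33 for Itga1, 8.26 for Itga2 and 1.65 for Itga5, the last 2 on 2 reads each in WT. No relation between matches and ratios was tested. The miR-27 match of Itga10 lies at chr3:96664327-96664353 and that of Itga11 at chr9:62783505-62783531, both on the plus strand.
Itga10, miR-27: gccctcttagACTGTGAtgagaggaaa
Itga11, miR-27: tggtagatgcACTGTGAtagggagcct

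Reads assigned to genes numbered from 1336496 to 1505805 per library. All 15 chondrocyte markers, Col2a1 and Acan among them, were detected in every library, with a summed level of 38856 RPM (reads scaled to an equal total per library) in WT and 29127 to 29602 in the other 3. Osteoblast markers (11 genes, with Col1a1) summed to 34356 RPM in WT, 6944 in Cart-miR-23clus KO, 15895 without miR-26a and 18490 with the mimic, and 1 to 3 of them were at 0, among them Phex, Ifitm5 or Dmp1. The 12 macrophage markers summed to 766, 884, 268 and 484 in the same order, with Ptprc and Fcgr1 at 0 in miR-26a KO. The 7 adipocyte markers summed to 326, 852, 205 and 275, with Plin1 at 0 in all but Cart-miR-23clus KO. Smooth muscle markers (7 genes) summed to 235, 502, 230 and 307, with Myh11 at 0 throughout. Fibroblast markers (8 genes) summed to 3707, 2605, 4140 and 4035, with Pi16 at 0 throughout. Endothelial markers were near 0, at 3.98 to 8.98 RPM over 8 genes, with Cdh5, Tek, Tie1 and Cldn5 at 0 in all libraries.

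Each value below is a single library. Ratios are ratios of TPM as deposited (reads divided by a gene length and scaled to an equal total), each with a 95% interval computed from its reads by the exact Clopper-Pearson method. These intervals cover counting error only, so they compare libraries and not conditions, and no p-value can be given. In such bulk samples, fewer cells of a type and less RNA per cell cannot be told apart.

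Integrin mRNA was present at 1183 RPM in WT, 1111 in Cart-miR-23clus KO, 1443 without miR-26a and 1486 with the mimic, summed over the 10 genes. Another 17 integrin subunits were listed, and the 10 genes held 95.6%, 95.8%, 97.8% and 97.1% of all integrin reads. The beta chain Itgb1 alone had 2.54, 2.59, 2.40 and 2.68 times the RPM of the 8 alpha chains together. That ratio varied little, although the alpha chains varied among themselves.

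**Figure D1:**
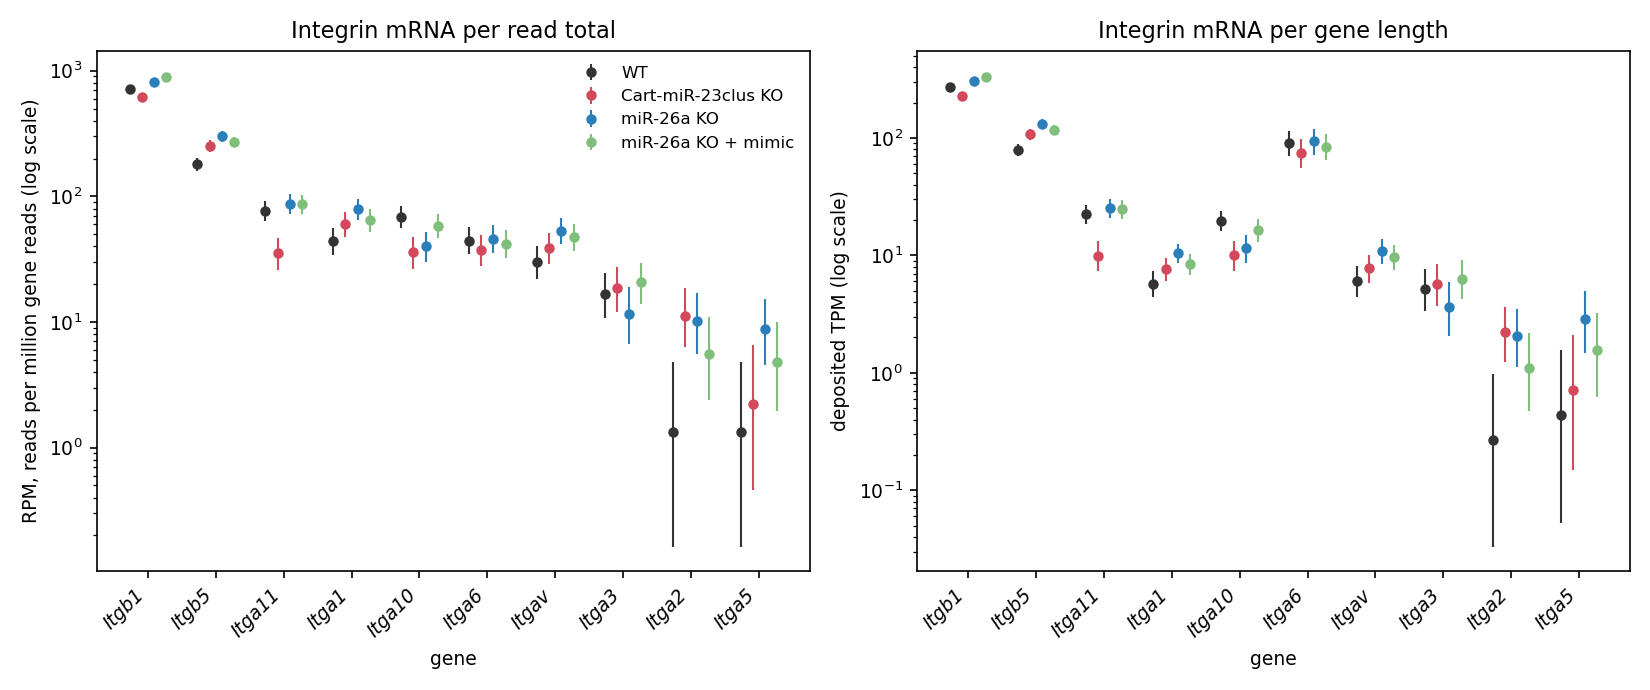
Level of each integrin mRNA in the 4 libraries, as RPM (left) and as deposited TPM (right), both on log scales; points are single libraries and bars are exact 95% Poisson intervals on the reads. Itgb1 is the highest gene in each library on both scales, Itga2 and Itga5 are the lowest, and Itga6 moves from the middle of the order on the left to 2nd or 3rd on the right.

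RPM stands beside TPM here because the reads come from 3′ ends. Such reads need not grow in number with transcript length, so TPM can place long mRNAs too low in an order of genes. On the per-length scale, deposited TPM, Itgb1 ranked first in every library, and Itgb5 and Itga6 took the next places. Itga11 and Itga10 followed, in either order, then Itgav, Itga1 and Itga3, with Itga2 and Itga5 last. Of the 9 neighbouring pairs in the order, the ratio of their TPM had an exact 95% interval that includes 1 for 5 pairs in WT, 5 in Cart-miR-23clus KO, 4 without miR-26a and 3 with the mimic, so for these the order is not settled by the reads. Itgb5 stood above Itga6 by 1.45 (1.08 to 2.00) in Cart-miR-23clus KO, 1.41 (1.08 to 1.86) without miR-26a and 1.39 (1.06 to 1.85) with the mimic, with the lengths behind the deposited TPM. In WT the unsettled pairs were Itga6 and Itgb5, Itga11 and Itga10, Itgav and Itga1, Itga1 and Itga3, and Itga5 and Itga2.

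The place of Itga6 in this order rested on the length by which its reads were divided. The lengths behind the deposited TPM could be recovered from the reads, and that of Itga6 was 707 bases, the length of a short processed transcript, against 4310 bases for its longest transcript. Its TPM was therefore 6.10 times what the longest transcript would give. The other 9 integrins had lengths within 5% of their longest transcript, such as 3815 bases for Itgb1 and 4969 for Itga11. Across 17867 genes, 65.1% had a length within 1% of the longest transcript and 6.05% had less than 0.25 of it. Outside the 10 genes, Itga4 (2314 of 9767 bases) and Itgb7 (455 of 2683) were divided by short lengths as well. With the longest transcript, Itga6 stood at 14.9, 12.2, 15.4 and 13.9 TPM in the same order of libraries and ranked 5th, 3rd, 4th and 5th. In RPM it ranked 5th, 5th, 6th and 7th. A ratio of the same gene between libraries is not touched by this length.

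**Figure D2:**
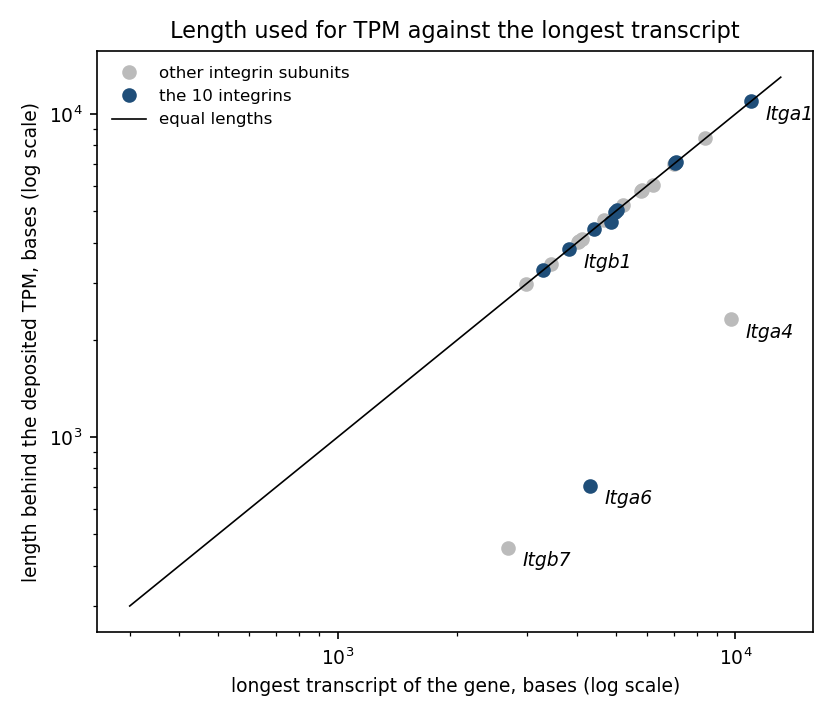
Length by which reads were divided to make the deposited TPM (vertical) against the longest annotated transcript of the gene (horizontal), in bases on log scales, for the 10 integrins (blue) and other integrin subunits (grey). Most genes lie on the line of equal lengths, while Itga6 (707 against 4310 bases), Itga4 and Itgb7 lie below it.

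Itga11, a receptor for fibrillar collagens, varied most among the integrins with at least 20 reads in each library. It had 116 reads (22.3 TPM) in WT, 47 reads (9.97 TPM) in Cart-miR-23clus KO, 119 reads (25.2 TPM) for miR-26a KO and 125 reads (24.7 TPM) with the mimic. The Cart-miR-23clus KO library stood alone as low, and the Poisson intervals of the other 3 overlapped one another. Its ratio was 0.446 (95% interval 0.311 to 0.631) against WT and 0.396 (0.276 to 0.559) against miR-26a KO. Against WT, miR-26a KO stood at 1.13 (0.865 to 1.47), and the mimic against miR-26a KO at 0.981 (0.757 to 1.27), both with intervals that include 1. The osteoblast marker sum was likewise lowest in Cart-miR-23clus KO (6944 RPM against 15895 to 34356), as was the fibroblast marker sum (2605 against 3707 to 4140). Col1a1 alone gave 39203 of 51734 osteoblast marker reads in WT and 7378 of 9281 in Cart-miR-23clus KO. Against WT, 8 of 9 passing osteoblast markers had intervals below 1 (12.3% of all genes). Of 6 passing fibroblast markers, 2 had ratios over 1 and 4 under 1. The part of these cells in the level of Itga11 was not tested. Itga11 (ENSMUSG00000032243) lies at chr9:62677826-62783982 on the plus strand of GRCm38.

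Among 2067 genes with at least 100 reads in every library, 3 had the profile nearest to that of Itga11, by root mean square distance of centred log2 TPM over the 4 libraries. S100a10, a partner of annexin A2, was nearest at a distance of 0.0864 (409, 214, 477 and 496 TPM, with the libraries in the same order as for Itga11). Ccnd1, the cell cycle protein cyclin D1, followed at 0.0966 (327, 152, 320 and 343 TPM). Col12a1, a collagen that associates with fibrils, was at 0.111 (131, 62.6, 128 and 140 TPM). All 3 shared with Itga11 the low value in Cart-miR-23clus KO, and a profile of 4 libraries is a description only.

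Itga10, the collagen II receptor chain of chondrocytes, was highest in WT. It had 104 reads (19.8 TPM) in WT, 48 reads (10.0 TPM) in Cart-miR-23clus KO, 55 reads (11.5 TPM) for miR-26a KO and 84 reads (16.4 TPM) with the mimic. Both knockout libraries were low and the mimic library lay between them and WT. The ratio to WT was 0.508 (0.353 to 0.722) in Cart-miR-23clus KO and 0.581 (0.411 to 0.813) in miR-26a KO. The mimic library stood at 1.43 (1.00 to 2.04) against miR-26a KO, an interval whose lower end touches 1. Between the knockouts the interval includes 1, at 0.875 (0.581 to 1.31) for Cart-miR-23clus KO against miR-26a KO. The osteoblast marker sum had the same order of libraries as Itga10, with 34356 RPM in WT, 18490 with the mimic, 15895 without it and 6944 in Cart-miR-23clus KO. The chondrocyte marker sum was also highest in WT (38856 RPM) and lay between 29127 and 29602 in the other 3, with Col2a1 giving 35871 of its 58509 reads in WT. In Cart-miR-23clus KO against WT its genes moved both ways, with 5 of the 15 intervals above 1 (11.8% of all genes) and 9 below 1 (12.3%). There, 2 were above 2-fold (4.73%) and 3 below 0.5-fold (4.38%). In miR-26a KO against WT, 3 intervals lay above 1 (11.1%) and 10 below 1 (8.59%). The median log2 ratio of the markers was -0.48 there, and 0.02 over all genes. The part of these cells in the level of Itga10 was not tested. Itga10 (ENSMUSG00000090210) lies at chr3:96645584-96664519 on the plus strand, and Gm42957, which lies within it on the same strand, had 2 to 5 reads.

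Itga1, a chain that binds collagen IV and other collagens, was lowest in WT. It had 66 reads (5.76 TPM) in WT, 80 reads (7.69 TPM) in Cart-miR-23clus KO, 109 reads (10.4 TPM) for miR-26a KO and 94 reads (8.42 TPM) with the mimic. WT, the highest library for Itga10, was thus the lowest for Itga1, and miR-26a KO was the highest. The ratio of miR-26a KO to WT was 1.81 (1.32 to 2.50), and Cart-miR-23clus KO stood below miR-26a KO at 0.736 (0.544 to 0.991). The latter interval ended just below 1, and it included 1 at 99% (0.496 to 1.08) and with other scalings of the libraries. Cart-miR-23clus KO against WT, at 1.33 (0.951 to 1.88), and the mimic against miR-26a KO, at 0.806 (0.605 to 1.07), had intervals that include 1. Itga1 (ENSMUSG00000042284) lies at chr13:114953096-115101964 on the minus strand. Its span holds Pelo and Gm49395 on the same strand, both listed at 0 reads in every library, and how reads over more than 1 gene were assigned is not given in the sources used here. The antisense gene Gm10734 had 3 to 7 reads.

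Itga2, the chain of the collagen I receptor of platelets and epithelia, was near the limit of detection. It had 2 reads (0.269 TPM) in WT, 15 reads (2.22 TPM) in Cart-miR-23clus KO, 14 reads (2.07 TPM) for miR-26a KO and 8 reads (1.11 TPM) with the mimic. WT was the lowest library. The ratios to WT, 8.26 (1.92 to 74.4) and 7.69 (1.77 to 69.7), rested on 2 reads in WT, and these comparisons did not reach the minimum of 20 reads in the 2 libraries together. The mimic against miR-26a KO was at 0.534 (0.194 to 1.36), with an interval that includes 1. Itga2 (ENSMUSG00000015533) lies next to Itga1, at chr13:114833081-114932100 on the minus strand.

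Together the 4 collagen-binding chains took 67.4% (62.8 to 71.9) of the alpha chain reads in WT, 59.4% (53.8 to 64.8) in Cart-miR-23clus KO, 64.4% (59.9 to 68.8) without miR-26a and 65.1% (60.6 to 69.3) with the mimic. On deposited TPM the set held 32.0%, 25.2%, 30.7% and 33.1%, with Itga6 at 55.4% to 62.8%, and with the length of the longest transcript 64.6%, 53.4%, 60.2% and 61.9%. Cart-miR-23clus KO had the lowest share on each scale. By reads, Itga11 held 27.2% (23.0 to 31.7) of alpha reads in WT and 14.7% (11.0 to 19.0) in the Cart-miR-23clus KO library. The share of Itga10 was 24.4% (20.4 to 28.7) in WT, 15.0% (11.3 to 19.4) in Cart-miR-23clus KO, 11.9% (9.12 to 15.2) without miR-26a and 17.6% (14.3 to 21.3) with the mimic. Itga1 held 25.0% (20.4 to 30.1) in Cart-miR-23clus KO and 23.6% (19.8 to 27.8) for miR-26a KO, against 15.5% (12.2 to 19.2) in WT. Itga1 had the most reads of the alpha chains in Cart-miR-23clus KO, and Itga11 in the other 3 libraries. This order is that of reads, which 3′ end sequencing does not tie to length. Per length it turned, since in Cart-miR-23clus KO Itga1 held 6.48% of deposited TPM. With the longest transcript Itga1 held 13.7% there, Itga6 21.8%, Itga10 17.9%, Itga11 17.8% and Itgav 13.9%. Shares must sum to a whole, so a lower share of a gene raises those of the rest.

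**Figure D3:**
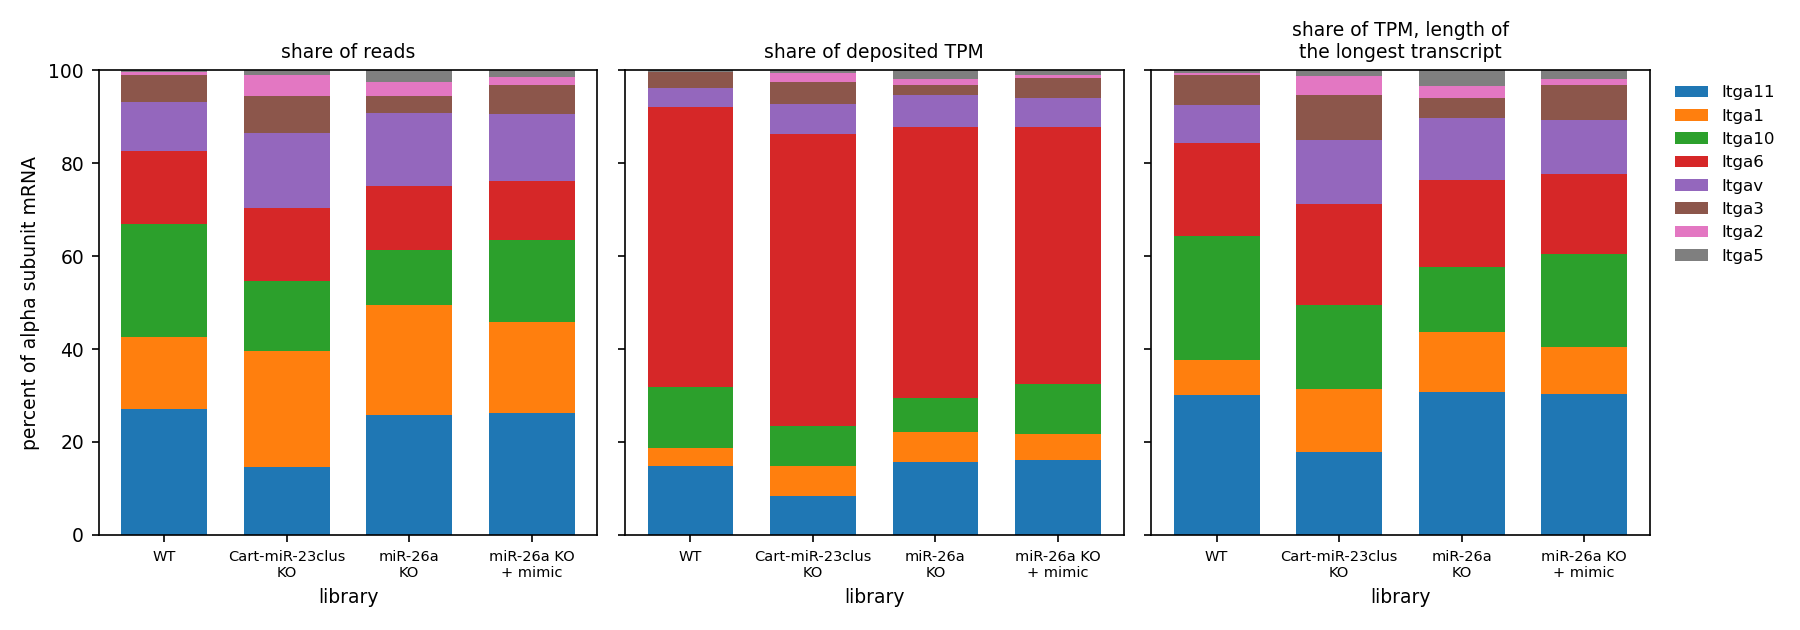
Make-up of alpha chain mRNA in each library, as percent of the reads of the 8 alpha genes (left), of their deposited TPM (middle) and of TPM with the length of the longest transcript (right). Itga6 takes 12.8% to 15.7% of reads, 55.4% to 62.8% of deposited TPM and 17.0% to 21.8% with the longest transcript, while the smaller Itga11 band of Cart-miR-23clus KO is seen in all 3 panels.

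Itga6, a laminin receptor chain, was the steadiest alpha chain. It had 67 reads in WT, 50 in Cart-miR-23clus KO, 63 without miR-26a and 61 with the mimic, and its highest deposited TPM was 1.26 times its lowest. All Poisson intervals overlapped. The ratio was 0.822 (0.558 to 1.20) for Cart-miR-23clus KO and 1.03 (0.720 to 1.48) for miR-26a KO against WT, 0.905 (0.626 to 1.31) for the mimic against miR-26a KO and 0.796 (0.538 to 1.17) between the knockouts. Differences of the size seen for Itga10 and Itga11 against WT in Cart-miR-23clus KO lie outside the first of these intervals. Its share of alpha mRNA depended on the scale, at 15.7% of reads but 60.2% of deposited TPM in WT. Itga6 (ENSMUSG00000027111) lies at chr2:71745616-71858416 on the plus strand.

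Itga3, the other laminin receptor chain, was read less deeply. It had 25 reads (5.16 TPM) in WT, 25 reads (5.68 TPM) in Cart-miR-23clus KO, 16 reads (3.63 TPM) for miR-26a KO and 30 reads (6.36 TPM) with the mimic. The Poisson intervals of the 4 libraries overlapped. Against WT the ratio was 1.10 (0.607 to 2.00) in Cart-miR-23clus KO and 0.703 (0.351 to 1.37) in miR-26a KO. The mimic stood at 1.75 (0.925 to 3.44) against miR-26a KO. The last 2 intervals include 1 and reach past 0.5 and 2 respectively, so the reads do not tell a 2-fold difference from none there, while the interval of Cart-miR-23clus KO against WT stays between 0.5 and 2. Itga3 (ENSMUSG00000001507) lies at chr11:95044474-95076801 on the minus strand.

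Itgav, the RGD-binding chain that pairs with several beta chains, was lowest in WT. It had 45 reads (6.11 TPM) in WT, 52 reads (7.77 TPM) in Cart-miR-23clus KO, 73 reads (10.9 TPM) for miR-26a KO and 69 reads (9.61 TPM) with the mimic. The miR-26a KO library exceeded WT by a ratio of 1.78 (1.21 to 2.64). The other comparisons had intervals that include 1, at 1.27 (0.837 to 1.94) for Cart-miR-23clus KO against WT, 0.883 (0.626 to 1.24) for the mimic against miR-26a KO and 0.714 (0.491 to 1.03) between the knockouts. Itgav (ENSMUSG00000027087) lies at chr2:83724397-83806916 on the plus strand.

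Itga5, the chain of the fibronectin receptor, was barely detected. It had 2 reads (0.434 TPM) in WT, 3 reads (0.716 TPM) in Cart-miR-23clus KO, 12 reads (2.86 TPM) for miR-26a KO and 7 reads (1.56 TPM) with the mimic. The libraries of miR-26a KO genotype held 19 of its 24 reads. Its ratios, 6.59 (1.47 to 60.6) for miR-26a KO against WT, 1.65 (0.189 to 19.8) for Cart-miR-23clus KO against WT and 0.545 (0.182 to 1.50) for the mimic against miR-26a KO, have intervals too wide to give a size. In no comparison did Itga5 reach 20 reads. Itga5 (ENSMUSG00000000555) lies at chr15:103344286-103366763 on the minus strand.

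Itgb5, the beta chain that pairs with Itgav, followed the order of Itgav with more reads. It had 272 reads (79.3 TPM) in WT, 337 reads (108 TPM) in Cart-miR-23clus KO, 411 reads (132 TPM) for miR-26a KO and 393 reads (118 TPM) with the mimic. From WT the level stepped up through Cart-miR-23clus KO and the mimic library to miR-26a KO, an order that Itga1, Itgav and Itgb5 had in common on the TPM scale. Against WT the ratio was 1.36 (1.16 to 1.61) in Cart-miR-23clus KO and 1.66 (1.42 to 1.94) in miR-26a KO. The mimic library stood at 0.893 (0.776 to 1.03) against miR-26a KO and the knockouts at 0.822 (0.710 to 0.952), Cart-miR-23clus KO below miR-26a KO. Itgb5 (ENSMUSG00000022817) lies at chr16:33829665-33949338 on the plus strand.

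Itgb1, the common partner of most of these alpha chains, had the most reads and so the narrowest intervals. It had 1083 reads (272 TPM) in WT, 828 reads (229 TPM) in Cart-miR-23clus KO, 1105 reads (304 TPM) for miR-26a KO and 1282 reads (330 TPM) with the mimic. The Cart-miR-23clus KO library was the lowest. Its ratio was 0.842 (0.768 to 0.922) against WT and 0.751 (0.686 to 0.823) against miR-26a KO. In miR-26a KO it stood at 1.12 (1.03 to 1.22) against WT, and with the mimic at 1.08 (0.999 to 1.18) against miR-26a KO. These differences are all smaller than 1.5-fold in size, and without replicates they cannot be set against the spread between cultures. Itgb1 (ENSMUSG00000025809) lies at chr8:128685654-128733200 on the plus strand.

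**Figure D4:**
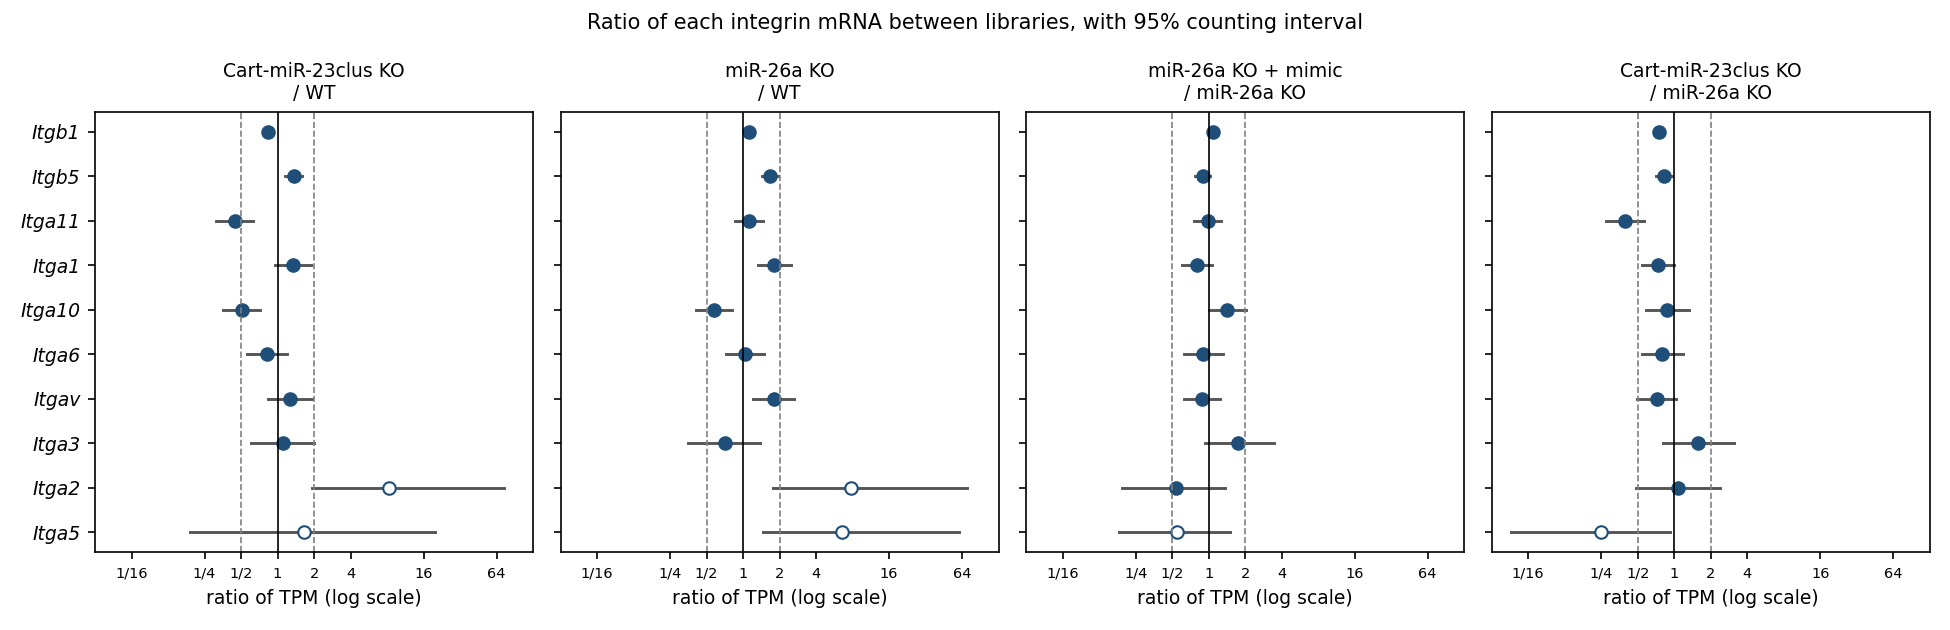
Ratio of deposited TPM of each integrin between 2 libraries, on a log scale, with 95% counting intervals as bars; filled points have at least 20 reads in the 2 libraries together, open points fewer, and dashed lines mark ratios of 0.5 and 2. Itga11 (0.446) and Itga10 (0.508) stand lowest in Cart-miR-23clus KO against WT, and most filled points of mimic against miR-26a KO lie near 1.

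Counted together, the question was whether integrins differed between libraries more often than other genes did. The WT library serves in 2 of the comparisons and miR-26a KO in 3, so the comparisons are not independent of each other. Of the 10 integrins, 8 had at least 20 reads in Cart-miR-23clus KO and WT together. None of the 8 was above 2-fold, against 4.73% of all 9573 genes under the same minimum. Itga11 alone was below 0.5-fold, against 4.38% of genes. Only Itgb5 had an interval above 1, against 11.8% of genes. Itga10, Itga11 and Itgb1 had intervals below 1, 3 of the 8, against 12.3% of genes. Their median log2 ratio was -0.06, and that of all genes was -0.02, both with a pseudocount of 0.5 TPM.

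In miR-26a KO against WT, again 8 integrins passed the minimum. None was above 2-fold, against 3.88% of 9545 genes, and none below 0.5-fold, against 3.5%. Intervals lay above 1 for Itga1, Itgav, Itgb1 and Itgb5, 4 of the 8, against 11.1% of genes. An interval below 1 was found for Itga10 alone, against 8.59%. The median log2 ratio was 0.17, and 0.02 over all genes. Of the 5 integrins with a match to miR-26a, Itga1 (1.81) and Itgb1 (1.12) had intervals above 1, as had Itga2 (7.69, 1.77 to 69.7) and Itga5 (6.59, 1.47 to 60.6), which did not pass the minimum and had 2 reads each in WT. Itga3 (0.703) had an interval that includes 1. Itgav (1.78) and Itgb5 (1.66), which hold no match, had intervals above 1 too. These are counts of single libraries, and no relation between matches and ratios was tested.

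With the mimic, against miR-26a KO without it, 9 integrins passed, all but Itga5. None lay above 2-fold, against 1.89% of 9471 genes, or below 0.5-fold, against 1.46%. Itga10 had an interval just above 1, against 5.07% of genes, and no integrin had an interval below 1, against 5.05%. The median log2 ratio was -0.14, with -0.00 over all genes. For integrins with a match to the mimic's seed, the ratios were 0.806 for Itga1, 0.534 for Itga2, 1.75 for Itga3, 0.545 for Itga5 and 1.08 for Itgb1, each with an interval that includes 1.

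Between the knockouts, Cart-miR-23clus KO against miR-26a KO, 9 integrins passed. None was above 2-fold, against 3.99% of 9453 genes, and Itga11 was below 0.5-fold, against 3.43%. No interval lay above 1, against 8.26% of genes. Itga1, Itga11, Itgb1 and Itgb5 had intervals below 1, against 10.7%. That of Itga1 ended at 0.991, and it included 1 at 99% and with other scalings of the libraries. The median log2 ratio was -0.33, with -0.05 over all genes.

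An interval narrows with the reads behind it, so the shares among all genes understate how often a well-read gene leaves 1. Among genes with at least 500 reads in the 2 libraries together, as Itgb1 and Itgb5 have, 28.9% had an interval above 1 and 30.8% below 1 in Cart-miR-23clus KO against WT. The same shares were 26.1% and 25.0% in miR-26a KO against WT, 14.2% and 12.5% with the mimic, and 23.3% and 26.4% between the knockouts. Itga1, Itga10, Itga11 and Itgav have fewer reads than this.

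Of the 17 other integrin subunits, only Itga7, a laminin receptor chain best known from muscle, had at least 20 reads in a library. It had 51 reads (12.2 TPM) in WT, 19 reads (4.99 TPM) in Cart-miR-23clus KO, 18 reads (4.72 TPM) for miR-26a KO and 16 reads (3.92 TPM) with the mimic. WT alone was high. The ratio to WT was 0.410 (0.229 to 0.707) in Cart-miR-23clus KO and 0.388 (0.213 to 0.675) in miR-26a KO, and the mimic against miR-26a KO was at 0.831 (0.396 to 1.73). From 5 to 7 of the 17 had no reads in a given library, for which a limit of 3 reads comes to 1.99 to 2.24 RPM.

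Ligands of integrins formed a list of 41 genes, of which 33 passed the minimum in Cart-miR-23clus KO against WT. There, 7 were above 2-fold (4.73% of all genes) and 4 below 0.5-fold (4.38%), 12 had intervals above 1 (11.8%) and 13 below (12.3%), and the median log2 ratio was -0.04. The list therefore spread in both directions about a median close to that of all genes. Col1a1 and Col1a2, the chains of the fibrillar collagen that Itga2 and Itga11 bind, stood at 0.207 (0.202 to 0.212) and 0.417 (0.405 to 0.428). Ibsp, an RGD protein of mineralised matrix, had the lowest ratio, 0.166 (0.158 to 0.175). The highest were those of Icam1, at 6.77 (4.49 to 10.6), and Vcam1, at 3.11 (2.00 to 4.97), both ligands of leukocyte integrins, and between them the matricellular Ccn3, at 6.28 (4.15 to 9.84), each on 27 or 28 reads in WT. Col2a1, the main collagen of cartilage, stood at 0.772 (0.760 to 0.785). In miR-26a KO against WT, 4 of 33 were above 2-fold (3.88% of all genes) and 2 below 0.5-fold (3.5%), with 10 intervals above 1 (11.1%), 10 below (8.59%) and a median of -0.08. Mfge8, an RGD protein bound by Itgav, was at 1.65 (1.53 to 1.78) there, and the 4 above 2-fold were Chad, a cartilage matrix protein bound by collagen-receptor integrins, at 6.18 (3.60 to 11.3), Ccn3 at 4.19 (2.72 to 6.66), Postn at 3.08 (1.45 to 7.10) and Icam1 at 2.07 (1.28 to 3.44). Chad had 16 reads in WT and Postn 10. Col1a1 was at 0.425 (0.417 to 0.433). With the mimic, none of 33 passed 2-fold either way (1.89% and 1.46% of all genes), and 8 intervals lay above 1 (5.07%) and 3 below (5.05%). Ccn2, a matricellular ligand, was at 0.788 (0.744 to 0.835) and Col6a2, a chain of pericellular collagen VI, at 1.41 (1.27 to 1.58).

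The adhesion complex, the proteins that connect integrin tails to actin and to signalling, was listed with 39 genes, of which 31 passed. In Cart-miR-23clus KO against WT none was above 2-fold (4.73% of all genes) and 2 were below 0.5-fold (4.38%), with 2 intervals above 1 (11.8%), 9 below 1 (12.3%) and a median log2 ratio of -0.10. Fyn, a kinase at adhesions, stood at 0.498 (0.320 to 0.761), the adaptor Zyx at 0.667 (0.483 to 0.913) and the integrin-linked kinase Ilk at 0.672 (0.457 to 0.978). In the other direction, Tln2, a talin that binds beta chain tails, stood at 1.85 (1.47 to 2.34) and the tensin Tns1 at 1.71 (1.21 to 2.44). In miR-26a KO against WT none passed 2-fold either way (3.88% and 3.5% of all genes), 3 intervals lay above 1 (11.1%) and 3 below (8.59%), and the median was -0.01. Tln2 and Tns1 were again higher, at 1.51 (1.19 to 1.93) and 1.65 (1.16 to 2.35), and both comparisons use the same WT library. Dab2, an endocytic adaptor of integrins, was at 0.711 (0.612 to 0.825). With the mimic 1 interval lay on each side of 1 (5.07% and 5.05% of all genes), and Itgb1bp1, a protein that binds the Itgb1 tail, stood at 0.672 (0.495 to 0.910).

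Membrane partners of integrins (tetraspanins, syndecans, caveolin and others) were listed with 15 genes. In Cart-miR-23clus KO against WT, 13 passed, none beyond 2-fold either way (4.73% and 4.38% of all genes), with 2 intervals above 1 (11.8%), 5 below (12.3%) and a median log2 ratio of 0.10. The tetraspanin Cd9 stood at 0.682 (0.567 to 0.817) and the syndecan Sdc4 at 1.45 (1.25 to 1.69). In miR-26a KO against WT, 14 passed, 2 of them above 2-fold (3.88% of all genes), with 4 intervals above 1 (11.1%), 1 below (8.59%) and a median of 0.18. Cav1, the caveolin that links integrins to membrane domains, stood at 2.43 (1.59 to 3.78) on 73 and 33 reads, and Cd9 at 0.669 (0.556 to 0.804). With the mimic 14 passed, none above 2-fold (1.89% of all genes) and 1 below 0.5-fold (1.46%), with 2 intervals above 1 (5.07%), 1 below (5.05%) and a median of 0.07. Sdc3 stood at 1.14 (1.03 to 1.27) and Cd63 at 1.06 (1.01 to 1.11), and Cd47, a receptor for thrombospondin that associates with integrins, at 0.647 (0.472 to 0.882). In these 3 lists of genes around the integrins, medians stayed within 0.2 of 0 on the log2 scale in the comparisons with WT and with the mimic.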

How the data were processed

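Chondrocyte RNA was read from 3′ ends (QuantSeq FWD), and the authors mapped single-end reads to mm10. The aligner, counting tool and annotation are not given in the sources used here. The deposited TPM were made by the authors from reads per gene, divided by 1 length per gene. The deposited estimated counts are whole numbers for every gene, without normalization, for 3 of the 4 libraries. Reads of the mimic library were recovered from its TPM steps (14429 of 14429 values tested were whole within 0.01 reads, 588 genes could not be recovered). The length behind each TPM value was obtained from TPM and reads and compared with GENCODE M21 transcripts.

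Ratios are of deposited TPM, over genes with at least 20 reads in the 2 libraries together, and were counted above 2, below 0.5, or with a 95% interval (exact Clopper-Pearson on reads, offset by the TPM scale) off 1. Levels have exact Poisson intervals. Intervals cover counting error only, and reads without molecular identifiers are not independent molecules. No test between conditions was made, since each has 1 library. The 3′ UTRs came from GENCODE (at least 50 bases for the comparison genes). Named genes were all members, other subunits with at least 20 reads in a library, and the 3 largest and 3 smallest ratios of a list with at least 20 reads in each library, of which some are given. Shares of alpha chain mRNA were taken over reads, deposited TPM and TPM with the longest transcript. Chad, Postn, Cd63 and Col2a1 were named after their values were seen. The members and lists were chosen with earlier results of these data known. Alternatives were RPM, TMM of edgeR 4.0.16, size factors of DESeq2 1.42.0 (R 4.3.3), other minimums, a limit of 1.5-fold, 99% intervals, pseudocounts of 0.1 and 1 TPM, and 8-letter seed matches. The length of the longest transcript, the minimum of 500 reads and the intervals of ratios between neighbouring genes were added after seeing the data. Steps were tested on simulated data with Python 3.11.15, numpy 2.4.6, pandas 2.3.3 and scipy 1.17.1.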

Additional observations from a re-analysis of the deposited data

How the results depend on the processing

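No paired analysis was possible because no condition had more than 1 library, so none could be left out either. All 120 ratios recomputed with RPM, TMM or DESeq2 size factors stayed inside their 95% intervals, at 0.975 to 1.03 times the reported ratio, and none changed direction. Without the minimum of 20 reads, 1 integrin was above 2-fold in Cart-miR-23clus KO against WT (Itga2; 10.3% of all genes), 2 in miR-26a KO against WT (Itga2 and Itga5; 8.72%), and 2 were below 0.5-fold between the knockouts (Itga11 and Itga5; 6.57%). The genes so added, Itga2 and Itga5, rest on 2 or 3 reads in the lower library. With a limit of 1.5-fold, 2 of 8 integrins were lower in Cart-miR-23clus KO than in WT (12.8% of all genes) and none higher (12.5%). In miR-26a KO against WT, 3 of 8 were higher (11.2%) and 1 lower (10.1%). With the mimic, 1 of 9 was higher (6.88%) and 1 lower (6.92%). Between the knockouts, 1 of 9 was higher (10.2%) and 1 lower (11.4%). With a 99% interval the mimic comparison had 0 intervals above 1, and with RPM, TMM or DESeq2 size factors it had 2 (Itga10 and Itgb1). Between the knockouts, the interval of Itga1 included 1 at 99% (0.496 to 1.08). Its 95% interval did so too with RPM, TMM or DESeq2 size factors. Medians of the integrins moved by little under every scaling and pseudocount tried. Seed matches of 8 letters were held by 3 integrins for miR-26a, 0 for miR-23a, 3 for miR-27 and 0 for miR-24. Of 10352 genes, 5.38%, 7.38%, 6.46% and 8.99% held them, in the same order. The shares for 8 letters were not taken over genes with long UTRs, so the length of integrin UTRs is not allowed for. The rank of integrins changed in 24 of 40 cases with RPM in place of deposited TPM, and in 9 of 40 with the length of the longest transcript. Of 9 alpha chain shares per library, the collagen-binding set included, 6 to 7 moved beyond their counting interval between deposited TPM and reads, and 7 to 8 with the longest transcript. Itga2, Itga3, Itga5, Itga6 and Itgav had under 100 reads in every library, and intervals of Itga2 and Itga5 against WT ran from 1.92 to 74.4 and from 0.189 to 19.8 in Cart-miR-23clus KO.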
